A study of Schizosaccharomyces pombe
Saccharomyces cerevisiae with 24 samples.

Results

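The genes described here encode the subunits of RNA polymerase II and of 2 of its general transcription factors, TFIID and TFIIH, in the budding yeast Saccharomyces cerevisiae. They were chosen by membership of these complexes and not by any measured value, though with earlier results of these data known. They comprise 12 subunits of RNA polymerase II, 14 TATA-binding-protein-associated factors (TAFs) of TFIID and 10 subunits of TFIIH, or 36 of the 7127 genes counted. All 36 were detected in at least 50% of the libraries and were tested, as were 6069 genes in all. The deposited tables name genes by systematic identifiers only. Standard names were assigned to the 36 identifiers from S. cerevisiae nomenclature, in which RPO21 encodes Rpb1, RPO26 encodes Rpb6 and RPC10 encodes Rpb12. The polymerase genes were RPO21 (YDL140C), RPB2 (YOR151C), RPB3 (YIL021W), RPB4 (YJL140W), RPB5 (YBR154C), RPO26 (YPR187W), RPB7 (YDR404C), RPB8 (YOR224C), RPB9 (YGL070C), RPB10 (YOR210W), RPB11 (YOL005C) and RPC10 (YHR143W-A). The TFIID genes were TAF1 (YGR274C), TAF2 (YCR042C), TAF3 (YPL011C), TAF4 (YMR005W), TAF5 (YBR198C), TAF6 (YGL112C), TAF7 (YMR227C), TAF8 (YML114C), TAF9 (YMR236W), TAF10 (YDR167W), TAF11 (YML015C), TAF12 (YDR145W), TAF13 (YML098W) and TAF14 (YPL129W). The TFIIH genes were SSL2 (YIL143C), RAD3 (YER171W), TFB1 (YDR311W), TFB2 (YPL122C), SSL1 (YLR005W), TFB4 (YPR056W), TFB3 (YDR460W), KIN28 (YDL108W), CCL1 (YPR025C) and TFB5 (YDR079C-A).

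RNA polymerase II transcribes protein-coding genes. TFIID, which holds the TATA-binding protein and the TAFs, recognizes promoters and helps to load the rest of the preinitiation complex. TFIIH enters that complex last, opens the DNA with its translocase Ssl2 and phosphorylates the tail of Rpb1 with its kinase Kin28. Several subunits serve more than 1 machine. Rpb5, Rpb6, Rpb8, Rpb10 and Rpb12 are part of all 3 nuclear RNA polymerases, Taf5, Taf6, Taf9, Taf10 and Taf12 are also part of the coactivator SAGA, and the Rad3 and Ssl2 subunits of TFIIH act in nucleotide excision repair.

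The study followed new RNA in diploid W303 cells that were grown in raffinose and given galactose for 60 or 20 min. At each time the culture was divided, and 1 portion received a 6 min pulse of 4-thiouracil (4sU), a uracil analog that is built into new transcripts, while the other received none. RNA was biotinylated at its thiol groups and passed over streptavidin beads, which gave a labeled fraction (bound) and an unlabeled fraction (flow-through), and total RNA was sequenced without the pull-down. Fission yeast (Schizosaccharomyces pombe) cells, themselves labeled with 4sU, were added before RNA isolation as a spike-in. The 12 groups were thus labeled, unlabeled and total RNA with 4sU at 60 and at 20 min, and the same 3 fractions without 4sU at both times, each with 2 biological replicates, or 24 libraries. Both times and both arms of a replicate came from 1 culture, so that each comparison rests on 2 cultures.

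With 4sU, raw counts per library were 6600472 to 38373886 in labeled, 4781419 to 25744071 in total and 2910909 to 5613817 in unlabeled RNA. Without 4sU they were 1073888 to 4751222 in labeled, 4380685 to 5725714 in total and 3518958 to 10320711 in unlabeled RNA. The library of labeled RNA without 4sU at 20 min in replicate 1 stood apart. Its S. pombe-normalized total was 3259247 counts, whereas the lowest of these 4 libraries had 223290. As a coarse check, the 6 galactose-induced genes examined all lay above the median gene in total RNA and the 16 haploid-specific genes examined did not. The weakest galactose-induced gene had a mean of 93.7 normalized counts, against 72.4 for the median gene. All libraries came from cells given galactose, so induction itself was not tested. Below, a normalized count is a gene's raw count divided by the S. pombe reads of its library in units of 2000000. Values in each library are given in the order 60 min replicate 1, 60 min replicate 2, 20 min replicate 1 and 20 min replicate 2. Log2 fold changes come from edgeR's quasi-likelihood test, and a gene was called at a Benjamini-Hochberg adjusted p under 0.05 over all 6069 genes.

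Labeled RNA was compared with total RNA to ask how far each transcript was enriched in the RNA captured after the pulse, relative to other genes. These ratios were not corrected for the length or uracil number of a transcript. The 36 genes were spread widely on this measure. With 4sU, 15 of them were higher in labeled than in total RNA relative to the bulk of genes (41.7%) and 11 were lower (30.6%), in comparison with 33.0% and 27.7% of all genes tested. Their median log2 fold change was 0.03, against 0.05 for all genes, and the range was -1.75 for TFB5 to 3.72 for TAF8. The pull-down also enriches the labeled S. pombe RNA, so library sizes here were scaled by TMM, which sets the bulk of genes near 0. With S. pombe library sizes 36 of the 36 genes were higher in labeled RNA and 0 were lower, against 98.0% and 0.560% of all genes, so each direction in this comparison is relative to other genes.

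The spread among the 36 genes exceeded that between libraries. When each library of labeled RNA was divided by its total RNA and set against the median gene, the standard deviation between the 36 means was 1.03 log2 units, whereas the median standard deviation of 1 gene over its 4 libraries was 0.238. For all genes these values were 1.03 and 0.278. Of the 36 genes, 18 lay above the median gene in 4 of 4 libraries, 14 lay below it in 4 of 4, and RPB5, RPO26, RPC10 and TFB3 lay on both sides. Among all 6069 genes, 2170 lay above it in 4 of 4 libraries and 2127 below it, so such constancy was common. The complexes did not separate on this measure.

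**Figure D1:**
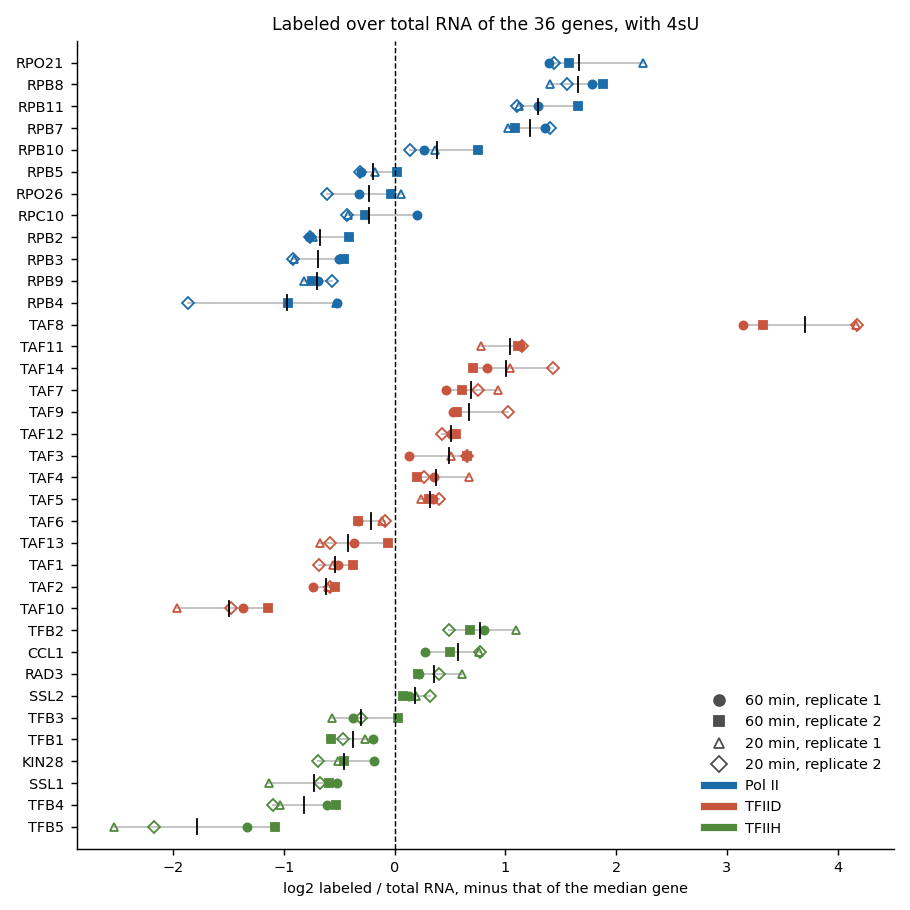
Labeled over total RNA with 4sU for the 36 genes, as log2 of the ratio of normalized counts minus that of the median gene (x axis, log2 units), with genes on the y axis grouped by complex and ordered by mean. Symbols are the 4 libraries and black ticks their means. TAF8 lies farthest to the right, with a mean of 3.70, and TFB5 farthest to the left, with a mean of -1.78, while each complex holds genes on both sides of 0.

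Among the 12 RNA polymerase II genes, 4 were higher in labeled RNA (RPO21, RPB8, RPB11 and RPB7) and 3 were lower (RPB2, RPB3 and RPB9). RPO21 encodes the largest, catalytic subunit. It had 2849, 5122, 8208 and 4006 normalized counts in labeled RNA, against 154.5, 193, 186 and 151 in total RNA. Its ratio exceeded that of the median gene in all 4 libraries, and the log2 fold change was 1.72 (standard error 0.20, edgeR adjusted p = 8.24e-06). RPB2, which encodes the other large catalytic subunit, lay on the opposite side of the median gene, with 4046, 8922, 9247 and 8209 normalized counts in labeled RNA, against 984, 1331, 1658 and 1420 in total RNA. Its log2 fold change was -0.63 (standard error 0.15, edgeR adjusted p = 0.00248). The 2 large subunits were thus called in opposite directions, though the difference between them was not itself tested.

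RPB8 encodes a small subunit shared by the 3 polymerases. Its normalized counts were 745, 1163, 1390 and 925 in labeled RNA and 30.9, 35.5, 56.4 and 32.0 in total RNA. Its log2 fold change was 1.69 (standard error 0.14, edgeR adjusted p = 6.84e-07), above the median gene in each of the 4 libraries. RPB11 and RPB3 encode partners that form the heterodimer around which the enzyme assembles. RPB11 had 189, 292, 254 and 181 normalized counts in labeled RNA, against 10.9, 10.4, 12.5 and 8.59 in total RNA. Its values in total RNA rest on 87, 17, 14 and 11 reads. The log2 fold change of RPB11 was 1.31 (standard error 0.27, edgeR adjusted p = 0.000782). For RPB3 the log2 fold change was -0.66 (standard error 0.11, edgeR adjusted p = 0.000187). These partners thus also lay on opposite sides, though the difference between them was not tested.

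The stalk of the enzyme is formed by Rpb4 and Rpb7. RPB7 was higher in labeled RNA, with a log2 fold change of 1.26 (standard error 0.17, edgeR adjusted p = 2.55e-05). RPB4 had the lowest value among the polymerase genes. It had 496, 1130, 999 and 1056 normalized counts in labeled RNA, against 101.5, 246, 155 and 391 in total RNA, and a log2 fold change of -1.07 (standard error 0.50) that was not called (edgeR adjusted p = 0.0796). Its total RNA differed between the cultures, as described below. With the culture as a block the value for RPB4 was -0.90 and passed the threshold (edgeR adjusted p = 0.00736), and RPB10 (0.42, adjusted p = 0.0184), TAF5 (0.36, adjusted p = 0.0486) and KIN28 (-0.42, adjusted p = 0.0425) then passed as well.

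In TFIID, 8 of the 14 genes were higher in labeled RNA (57.1%) and 4 were lower (28.6%), against 33.0% and 27.7% of all genes. The median of the 14 was 0.46 on the log2 scale. TAF8 had the highest value of the 36 genes. Its protein pairs with Taf10 through a histone fold. TAF8 had 290, 437, 448 and 416 normalized counts in labeled RNA, against only 4.65, 4.89, 2.69 and 2.34 in total RNA, where the raw counts behind these values were 37, 8, 3 and 3 reads. The groups were far apart, with a log2 fold change of 3.72 (standard error 0.29, edgeR adjusted p = 3.22e-07). The total RNA of cells without 4sU was as low, at 1.48, 3.35, 3.24 and 1.84 normalized counts, and the labeled RNA of these cells had 4.73, 8.32, 2.74 and 6.08. Of the 24 libraries, the 4 of labeled RNA with 4sU were the only ones with a high level of TAF8, and the size of its change rests on few reads of total RNA. Whether reads of an overlapping transcript on the same strand contribute to TAF8 was not tested.

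TAF10, whose protein is the partner of Taf8 and also of Taf3, was the lowest of the TFIID genes. It had 606, 1027, 1089 and 1015 normalized counts in labeled RNA and 223, 255, 458 and 288 in total RNA. Its log2 fold change of -1.45 (standard error 0.15, edgeR adjusted p = 2.81e-06) was below the median gene in 4 of 4 libraries. In order of size, the other TFIID genes called higher were TAF11 (1.08), TAF14 (1.04), TAF7 (0.72), TAF9 (0.69), TAF12 (0.54), TAF3 (0.51) and TAF4 (0.40). Those called lower were TAF2 (-0.58), TAF1 (-0.50) and TAF13 (-0.39). Taf1 and Taf2 are large subunits that contact core promoter DNA. Taf11 and Taf13 form another histone-fold pair whose genes were called in opposite directions, though the difference between them was not tested. Calls in either direction were common, at 33.0% higher and 27.7% lower among all genes.

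In TFIIH, 3 of the 10 genes were higher in labeled RNA (30.0%) and 4 were lower (40.0%), against 33.0% and 27.7% of all genes. The median of the 10 was -0.31. TFB5 encodes a small core subunit with a role in DNA repair and was the lowest of the 36. Its normalized counts were 154, 252, 241 and 205 in labeled RNA and 55.1, 59.9, 150 and 94.4 in total RNA. The log2 fold change was -1.75 (standard error 0.14, edgeR adjusted p = 3.22e-07), and TFB5 lay below the median gene in 4 of 4 libraries. Relative to the median gene its log2 ratio was -1.33 and -1.09 at 60 min, against -2.53 and -2.18 at 20 min. The times did not overlap, but the interaction with time was not called.

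Other genes of the TFIIH core were also lower. TFB4 had 583, 731, 1141 and 804 normalized counts in labeled RNA, against 127, 119, 252 and 175 in total RNA, and a log2 fold change of -0.79 (standard error 0.14, edgeR adjusted p = 0.000235). SSL1 had 1027, 1389, 1640 and 1421 normalized counts in labeled RNA, against 210, 234, 386 and 230 in total RNA, and a log2 fold change of -0.70 (standard error 0.14, edgeR adjusted p = 0.000729). TFB1 was lower as well, at -0.34. Not all core genes went this way, for TFB2 was the highest of the TFIIH genes. It had 320, 636, 660 and 658 normalized counts in labeled RNA, against 26.0, 44.6, 33.1 and 47.6 in total RNA, and a log2 fold change of 0.80 (standard error 0.22, edgeR adjusted p = 0.00667). CCL1, which encodes the cyclin of Kin28, was higher at 0.62, and RAD3, which encodes a helicase, at 0.40. KIN28, TFB3 and SSL2 were not called.

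Genes of related complexes were also called in both directions, as were all genes tested, with 33.0% higher and 27.7% lower. Of 25 Mediator genes 11 were higher and 4 lower, of 8 genes for the other general transcription factors 2 were higher and 2 lower, and of 19 genes specific to RNA polymerases I and III 7 were higher and 9 lower. The interaction of the labeled over total difference with time was called in 0 of the 36 genes, against 0.0494% of all genes, with edgeR (1 of the 36, TFB5, had an unadjusted p under 0.05, and its adjusted p of 0.327 was the smallest). At 60 min alone 10 of the 36 genes were higher and 6 lower, against 23.8% and 16.2% of all genes. At 20 min alone 12 were higher and 9 lower, against 27.3% and 23.8% of all genes. When total RNA of the cells without 4sU was the base, 18 were higher and 14 lower, against 37.5% and 32.1% of all genes.

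Total RNA with 4sU was compared with total RNA without it to ask whether the 6 min pulse went with a change of the transcript pool. The genes called were all RNA polymerase II genes. RPB5, RPO26, RPB7, RPB8 and RPB10 were higher with 4sU, or 5 of 36 genes (13.9%) and 5 of the 12 polymerase genes, in comparison with 3.51% of all genes. None of the 36 was lower, against 1.15% of all genes (edgeR). An unadjusted p under 0.05 in either direction was found for 7 of the 36, against 1080 of the 6069 genes tested. The TFIID and TFIIH genes contributed 0 calls with edgeR, and 1 of them had an unadjusted p under 0.05. The median log2 fold change was 0.56 for the polymerase, 0.29 for TFIID and 0.09 for TFIIH genes, while that of all genes was 0.23.

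Rpb10 is a small zinc-binding subunit. RPB10 had 56.9, 74.6, 70.8 and 72.6 normalized counts with 4sU, against 38.3, 43.0, 21.6 and 32.5 without it. Behind the values without 4sU were 52, 77, 20 and 53 reads. The groups did not overlap, and the log2 fold change was 1.03 (standard error 0.28, edgeR adjusted p = 0.0122). RPB8 had 30.9, 35.5, 56.4 and 32.0 normalized counts with 4sU, against 22.1, 8.93, 29.1 and 18.4 without it. Behind the values without 4sU were only 30, 16, 27 and 30 reads. The lowest library with 4sU was close to the highest without it, but the groups did not overlap, and the log2 fold change was 1.02 (standard error 0.32, edgeR adjusted p = 0.0354).

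RPB7, the stalk subunit gene, had 32.0, 47.7, 51.9 and 32.8 normalized counts with 4sU, against 21.4, 22.9, 23.7 and 14.1 without it. Behind the values without 4sU were only 29, 41, 22 and 23 reads. The groups of RPB7 also did not overlap (log2 fold change 1.01, standard error 0.31, edgeR adjusted p = 0.0340). RPO26 had 164, 246, 159 and 263 normalized counts with 4sU, against 89.9, 185, 66.9 and 104 without it. It was higher with 4sU in each of the 4 pairs from 1 culture and time, but the groups overlapped, and replicate 2 was higher than replicate 1 in both arms (log2 fold change 0.93, standard error 0.27, edgeR adjusted p = 0.0165). RPB5 encodes a subunit of the jaw that grips downstream DNA. It had 410.2, 410.3, 484 and 380 normalized counts with 4sU, against 298, 229, 217 and 166 without it, with no overlap (log2 fold change 0.91, standard error 0.26, edgeR adjusted p = 0.0188).

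**Figure D2:**
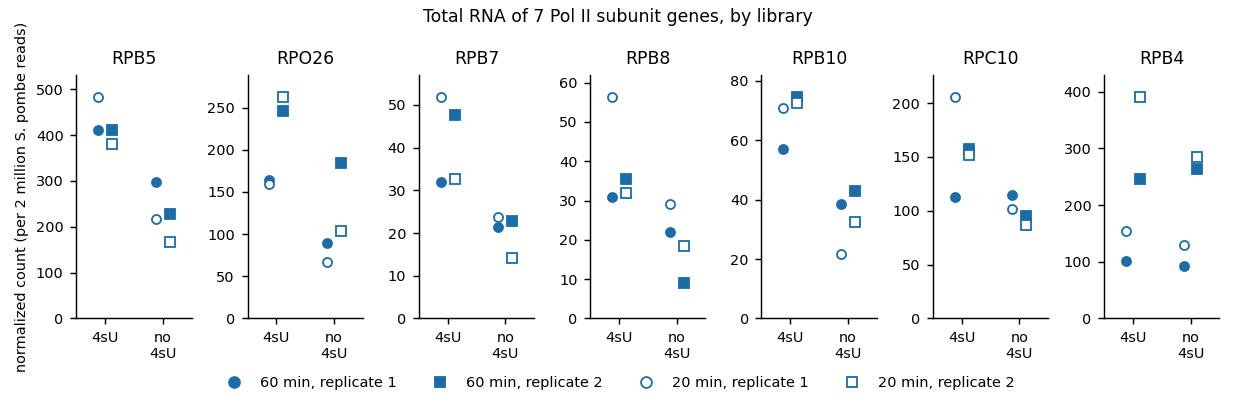
Normalized counts in total RNA (y axis, own scale in each panel, starting at 0) of 7 RNA polymerase II genes with 4sU (left in each panel) and without it (right), 1 point per library. RPB5, RPB7, RPB8 and RPB10 do not overlap between the groups, RPO26 and RPC10 overlap, and in RPB4 replicate 2 lies above replicate 1 in both groups.

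Of the 5 subunits found in all 3 polymerases, 4 (RPB5, RPO26, RPB8 and RPB10) were thus called, a grouping noticed after the values were seen. The fifth, RPC10, had 113, 157, 206 and 151 normalized counts with 4sU, against 115, 95.4, 101 and 86.6 without it. Its log2 fold change was 0.64 (standard error 0.27) and was not called (edgeR adjusted p = 0.157). Of the 19 genes specific to RNA polymerases I and III, 3 were called, all higher, and 18 lay above the median of all genes. The genes of the 2 largest subunits were not called, with 0.48 for RPO21 (edgeR adjusted p = 0.330) and 0.11 for RPB2 (edgeR adjusted p = 0.870).

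By the values alone, 5 of the 36 genes (RPO21, RPB5, RPB7, RPB8 and RPB10) had all 4 libraries with 4sU above all 4 without it, as did 7.79% of all genes. Paired by culture and time, 9 of the 36 genes were higher with 4sU in 4 of 4 pairs, as were 23.4% of all genes, so that the 36 lay near the background. The number of calls depended on single libraries. Leaving out the library with 4sU at 60 min in replicate 2 left 0 calls, leaving out either library without 4sU at 60 min left 1, leaving out replicate 1 with 4sU at 60 or at 20 min left 2, and leaving out replicate 2 without 4sU at 20 min left 3. Over these leave-outs 0.873% to 2.41% of all genes were called higher. TMM library sizes left 2 (RPB5 and RPB7), against 3.77% of all genes called higher, and DESeq2 called 3 (RPB5, RPO26 and RPB10), against 3.82%. The interaction with time was called in 0 of the 36 genes, against 0.198% of all genes, with edgeR (0 had an unadjusted p under 0.05).

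**Figure D3:**
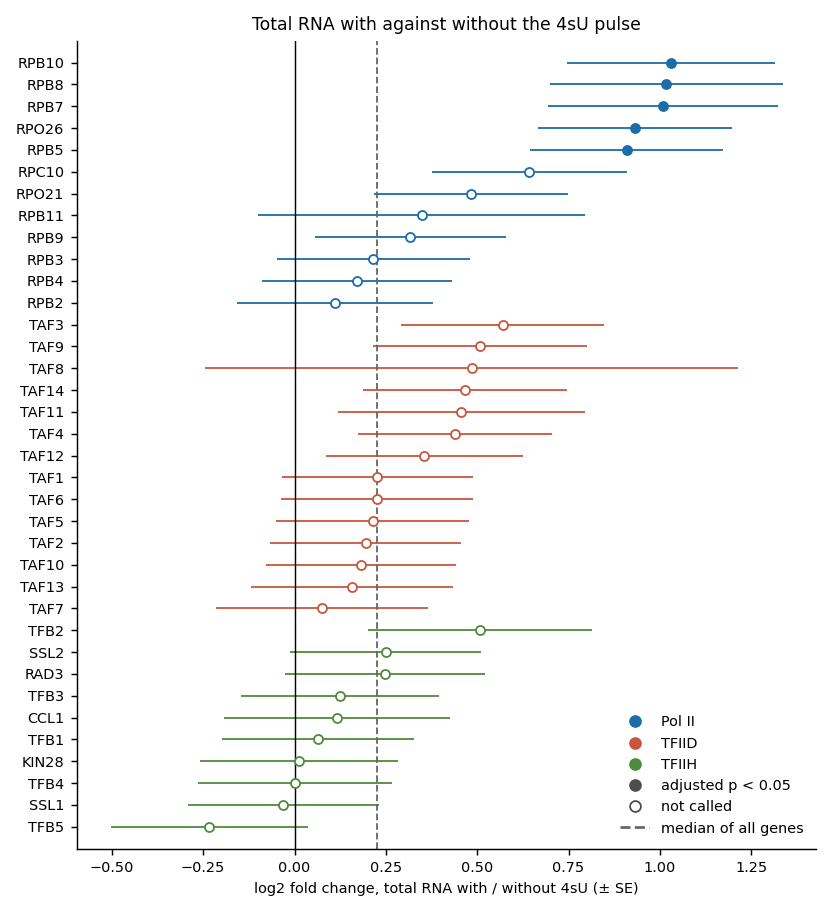
Log2 fold change of total RNA with over without 4sU (x axis, log2 units) for the 36 genes, grouped by complex on the y axis. Points are edgeR estimates with their standard errors, filled where called, and the dashed line is the median of all genes, 0.23. The 5 filled points are RNA polymerase II genes, from 0.91 for RPB5 to 1.03 for RPB10.

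The cultures differed in some of these genes beyond the effect of the pulse. In total RNA, RPB4 was higher in replicate 2 than in replicate 1 in each of the 4 conditions, by 1.09, 1.81, 1.75 and 1.74 log2 units relative to the median gene (60 and 20 min with 4sU, then 60 and 20 min without it). RPO26 followed the same direction, by 0.39, 1.20, 1.29 and 1.24 units. RPB10 did so by 0.20, 0.51, 0.42 and 1.20 units. Only 2 cultures were grown, so a difference between cultures has no replicate of its own.

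Labeled RNA with 4sU was compared with the same pull-down from cells without 4sU, which measures the background of the beads. All 36 genes were higher with 4sU, as were 99.2% of all genes, and none was lower, against 0% of all genes (edgeR). The median log2 fold change of the 36 was 5.82, that of all genes was 5.53, and the range ran from 4.10 for TAF10 to 6.62 for RPB7. RPB7 had 575, 903, 985 and 854 normalized counts with 4sU, against 7.50, 8.73, 11.0 and 6.58 without it. TAF11 followed at 6.58, RPB5 at 6.46 and TAF3 at 6.42, each with groups that did not overlap.

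TAF11 had 296, 530, 615 and 375 normalized counts with 4sU, against 3.89, 4.37, 4.80 and 5.76 without it. RPB5 had 2329, 3710, 3989 and 3017 with 4sU, against 29.2, 21.4, 88.5 and 20.7 without it. For TAF3 these values were 537, 902, 1093 and 903 with 4sU and 10.8, 5.82, 16.5 and 7.40 without it. RPB5 and TAF3, but not TAF11, were highest without 4sU in the library that stood apart. Background as a percentage of the signal with 4sU had a median over the 36 genes of 1.74%, 0.946%, 3.16% and 1.07%.

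In that library the background of TFB5 was 37.9% and that of TAF10 21.4%, whereas in the other 3 libraries TFB5 lay between 0.902% and 1.32% and TAF10 between 1.68% and 4.68%. Without it the log2 fold change was 6.42 for TFB5 instead of 4.33 and 5.30 for TAF10 instead of 4.10, and 36 genes were still called. TFB5 and TAF10 were also the lowest of the 36 in labeled over total RNA. That comparison does not use libraries without 4sU, but it shares the labeled libraries with 4sU, so it is not separate support. The interaction with time was called in 0 of the 36 genes, as in 0% of all genes, with edgeR (2 of the 36, RPB9 and TFB5, had an unadjusted p under 0.05). Most of the shift was shared by all genes, so that with TMM 1 of the 36 was called, against 5.01% of all genes.

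Unlabeled RNA with 4sU was compared with unlabeled RNA without it to ask what the beads had taken out of the flow-through. All 36 genes were lower with 4sU, as were 85.6% of all genes, and none was higher, against 0% of all genes (edgeR). DESeq2 called 33 of the 36 lower, against 83.3% of all genes. RPB4 (adjusted p = 0.141), RPO26 (adjusted p = 0.0969) and RPB11 (adjusted p = 0.121) did not pass with DESeq2. With edgeR the median log2 fold change was -2.97, against -2.69 for all genes. It was -2.24 for the polymerase genes, -3.17 for TFIID and -3.82 for TFIIH, and 9 of the 10 TFIIH genes but 4 of the 12 polymerase genes lay below the median of all genes.

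TAF1, which encodes the TFIID subunit that binds the TATA-binding protein, had the lowest value. It had 3.47, 8.78, 11.4 and 19.7 normalized counts with 4sU, against 186, 363, 171 and 335 without it, with a log2 fold change of -4.73 (standard error 0.58, edgeR adjusted p = 2.06e-14). In the 4 pairs of 1 culture and time, 1.86%, 2.42%, 6.65% and 5.89% of the level without 4sU was left. TAF7 had 1, 3, 0 and 12 reads with 4sU, and 29.1, 74.1, 33.6 and 63.8 normalized counts without it (log2 fold change -4.58, standard error 0.63, edgeR adjusted p = 5.59e-12). These few reads limit the precision of its value.

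TFB1, which encodes the TFIIH subunit that binds activators and TFIIE, had 4.62, 6.47, 6.32 and 15.1 normalized counts with 4sU, against 116, 249, 98.1 and 239 without it. Its log2 fold change was -4.49 (standard error 0.58, edgeR adjusted p = 2.51e-13), and the groups were far apart. TAF2 had 4.62, 8.32, 8.85 and 48.0 normalized counts with 4sU, against 172, 388, 233 and 402 without it. Here too the groups were far apart (log2 fold change -4.44, standard error 0.57, edgeR adjusted p = 2.00e-13).

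At the other end, RPB11 (-1.32), TAF14 (-1.40), TAF10 (-1.49) and RPO26 (-1.53) were reduced least. The share of RPO26 left was 38.8%, 22.3%, 30.3% and 52.1%. RPB11 kept 7.35%, 43.4%, 47.1% and 98.1%, so its value varied more between libraries than that of RPO26. These shares of RPB11 rest on 1, 8, 11 and 7 reads with 4sU, against 10, 10, 32 and 5 without it. The interaction with time was called in 0 of the 36 genes, as in 0% of all genes, with edgeR (1 of the 36, TFB4, had an unadjusted p under 0.05). With TMM library sizes, which remove the shift shared by all genes, 3 of the 36 genes (TAF10, TAF14 and TFB5) were higher and 15 lower, against 25.3% and 31.3% of all genes.

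**Figure D4:**
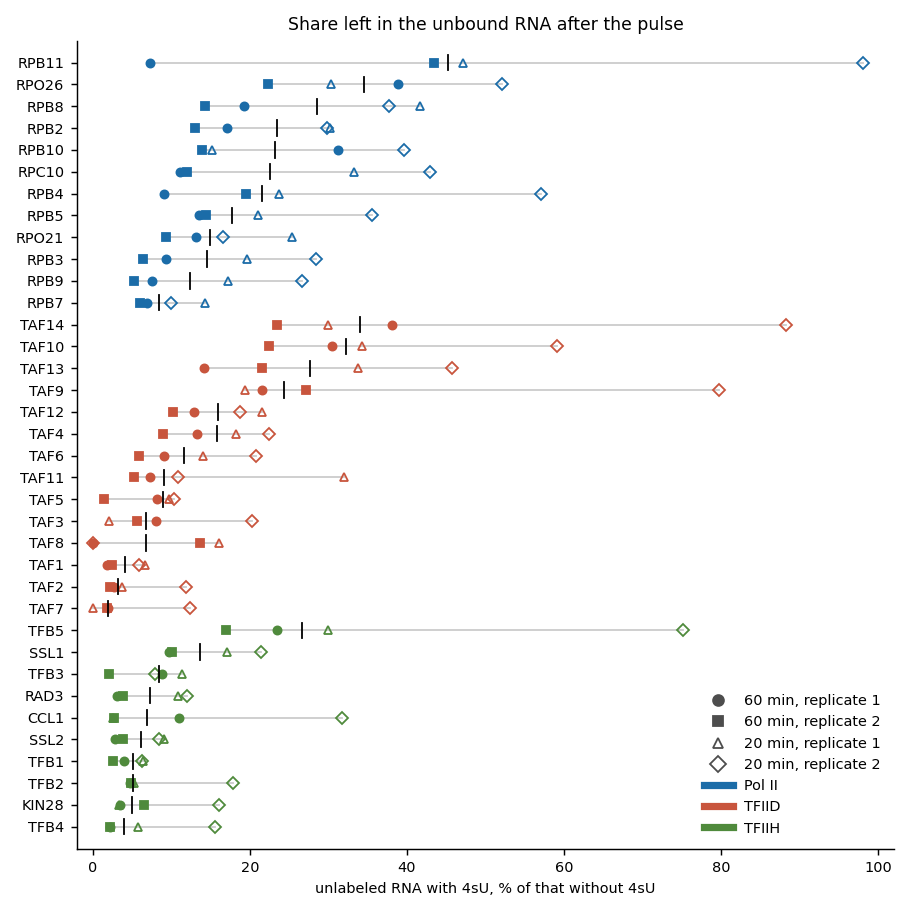
Unlabeled RNA with 4sU as a percentage of unlabeled RNA without it (x axis) for the 36 genes, grouped by complex on the y axis and ordered by median. Symbols are the 4 pairs of libraries and black ticks their medians. TAF1, TAF2, TAF7 and most TFIIH genes lie at the left, while RPB11, TAF14, TAF9 and TFB5 reach above 70% in 20 min replicate 2. The RPB11 point there rests on 7 reads with 4sU and 5 without it.

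Labeled over total RNA was also set beside the depletion from the unlabeled RNA. Across the 36 genes Spearman's rho between these log2 fold changes, which share no library, was 0.024 and Pearson's r was -0.044, as a description of these genes. TFB5 and TAF10 were low in labeled over total RNA and kept a large share in the unlabeled RNA. In contrast, TFB4 was low in labeled over total RNA and yet kept only 2.16%, 2.24%, 5.75% and 15.6%.

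RNA at 60 min in galactose was compared with RNA at 20 min in each fraction, to ask whether the genes of the machinery changed as the galactose response went on. In labeled RNA, 0 of the 36 genes were higher and 0 lower at 60 min, against 0.0989% and 1.25% of all genes (edgeR, with 0 of the 36 under an unadjusted p of 0.05, and 0 called by DESeq2 or with TMM). Their median log2 fold change was -0.42, against -0.43 for all genes, and the range was -0.91 for TAF2 to 0.14 for RPB11. TAF2 had 1132 and 1683 normalized counts at 60 min, against 3111 and 2171 at 20 min. Its times did not overlap, but its adjusted p with edgeR was 0.706.

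In total RNA with 4sU, 0 of the 36 genes were higher and 0 lower at 60 min, against 0.181% and 1.04% of all genes (edgeR, with 1 of the 36 under an unadjusted p of 0.05, and 0 called by DESeq2). The range was -1.08 for TFB5 to 0.90 for TAF8, with a median of -0.23. TFB5 had 55.1 and 59.9 normalized counts at 60 min, against 150 and 94.4 at 20 min. Its adjusted p was 0.606, and it passed the threshold only with TMM library sizes, at -0.83 (edgeR adjusted p = 0.0180). On that scale 7.27% of all genes were called. Without 4sU, TFB5 in total RNA had 88.5 and 78.7 normalized counts at 60 min, against 160 and 74.3 at 20 min, so that the times overlapped.

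In total RNA without 4sU, 0 of the 36 genes were higher and 0 lower, against 0.824% and 1.65% of all genes (edgeR, with 1 of the 36, RAD3, under an unadjusted p of 0.05, and 0 called by DESeq2). RAD3 had 108 and 97.1 normalized counts at 60 min, against 61.5 and 44.2 at 20 min, and a log2 fold change of 0.97 (edgeR adjusted p = 0.246). It was called only with TMM library sizes, at 0.91 (edgeR adjusted p = 0.0146). On that scale 9.42% of all genes were called. With 4sU, RAD3 in total RNA had 86.0 and 96.6 normalized counts at 60 min, against 94.0 and 71.8 at 20 min.

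**Figure D5:**
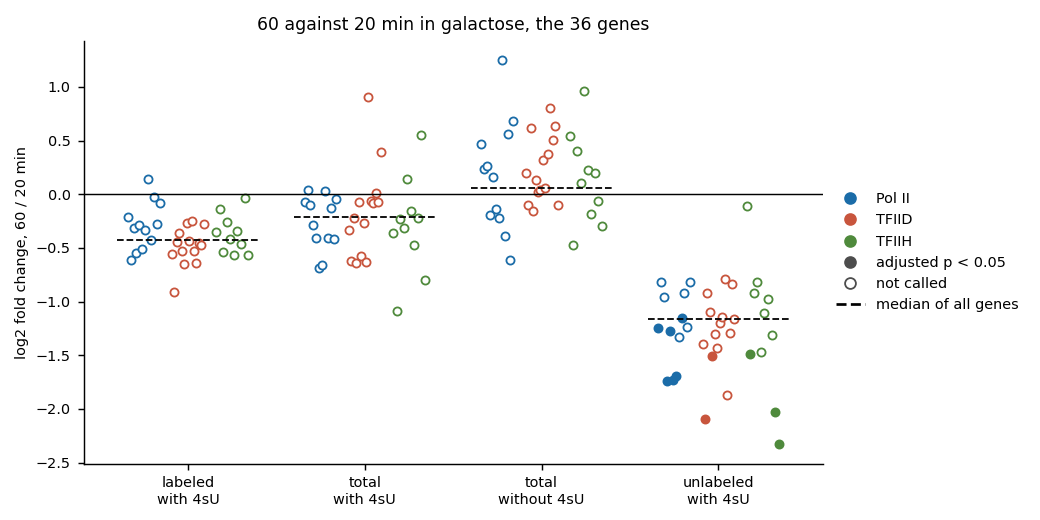
Log2 fold change at 60 over 20 min in galactose (y axis, log2 units) of the 36 genes in labeled, total and unlabeled RNA with 4sU and in total RNA without 4sU (x axis), colored by complex, filled where called. Dashed lines are the medians of all genes, at -0.43 in labeled, -0.21 in total and -1.16 in unlabeled RNA with 4sU and at 0.05 in total RNA without 4sU. The 11 filled points all lie in unlabeled RNA.

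In unlabeled RNA with 4sU, 11 of the 36 genes were lower at 60 min (30.6%), against 30.5% of all genes, and 0 were higher, against 0.0494% of all genes (edgeR). An unadjusted p under 0.05 in either direction was found for 20 of the 36, against 2764 of the 6069 genes tested. The share of the 36 called lower was thus close to that of all genes. The genes called were RPB2, RPB3, RPB4, RPB5, RPB9 and RPC10 of the polymerase, and TAF2 and TAF6 of TFIID. In TFIIH they were TFB4, CCL1 and TFB5. RPB4 had 6.4 and 68.4 normalized counts at 60 min, against 21.5 and 223 at 20 min, so its times overlapped. Replicate 2 was far above replicate 1 at both times. DESeq2 called 15 of the 36 genes lower, against 2123 of the 6069 genes tested. It did not call RPB4 (DESeq2 adjusted p = 0.254).

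TFB4 had 2.31 and 4.16 normalized counts at 60 min, against 8.21 and 25.6 at 20 min (log2 fold change -2.33, standard error 0.65, edgeR adjusted p = 0.00565). TAF2 had 4.62 and 8.32 at 60 min, against 8.85 and 48.0 at 20 min (-2.10, standard error 0.58, adjusted p = 0.00512). In both genes replicate 2 at 20 min was far above the other 3 libraries. CCL1 had 1.73 and 1.39 normalized counts at 60 min, against 0.632 and 12.5 at 20 min, and these times overlapped (-2.03, standard error 0.82, edgeR adjusted p = 0.0455). The raw counts behind CCL1 were 3 and 3 reads at 60 min and 1 and 19 at 20 min. RPB9 had 12.1 and 12.9 at 60 min, against 27.8 and 56.5 at 20 min, with no overlap (-1.74, standard error 0.54, edgeR adjusted p = 0.0114).

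These calls depended on replicate 2 at 20 min and on the scale. Without that library 0 of the 36 genes were called, and without replicate 1 at 60 min 0 were called, whereas without replicate 1 at 20 min 28 were. The share of all genes called lower moved too, to 3.46% without replicate 2 at 20 min, 1.63% without replicate 1 at 60 min and 53.1% without replicate 1 at 20 min. With TMM 0 of the 36 were called, against 7.74% of all genes, and with the 4 unlabeled libraries alone in the fit 0 were called, against 1.04%. With the culture as a block 8 were called, against 26.9%, and RPB2 (adjusted p = 0.0564), RPC10 (adjusted p = 0.0535) and CCL1 (adjusted p = 0.0628) no longer passed with edgeR.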

How the data were processed

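RNA was sequenced in 24 libraries of 12 groups with 2 biological replicates each. The authors aligned the reads with HISAT2 2.0.4, counted them per gene with featureCounts, taking the strand into account and including multi-mapping reads, and deposited raw counts. They also deposited a signal table, in which each count is divided by the S. pombe reads of its library in units of 2000000. Genes with near-identical copies or overlapping neighbors on the same strand can share reads.

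Counts were tested with edgeR 4.0.16 in R 4.3.3 (quasi-likelihood, Benjamini-Hochberg adjusted) on the 6069 genes whose count exceeded 0 in at least 50% of libraries. S. pombe totals served as library sizes, except for labeled over total RNA, where TMM was used. Time and labeled over total RNA were fitted on the 12 libraries with 4sU, and the tests of 4sU and of time without 4sU on the 8 libraries of a fraction. The fits were also run on simulated counts, with the same spread for every gene and no difference between cultures. Such counts check the working of the fits and not their error rates in these libraries. Levels per library come from the signal table. Precision is limited by 2 replicates and, for weak genes, by few reads. Alternatives were DESeq2 1.42.0, other library sizes, other filters on low counts, the culture as a block, fewer libraries in the fit, and leaving out each library.

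The replicate number marks the culture from which both times and both arms were taken, so the samples are paired by the growth protocol. Over the 66 pairs of groups, deviations of same-numbered libraries from their group means correlated with a median r of 0.12 (-0.25 to 0.35). No pair of replicates agreed within sampling noise.

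The 36 genes and the comparison lists were chosen with earlier results of these data known. Values in every library were given for up to 4 called genes in each direction per comparison by size of change, and for the highest and lowest gene of each complex in labeled over total RNA. RPB4 was added for time in unlabeled RNA, because its times overlapped. Genes outside the 36 are given as counts per list. Transcript lengths and uracil numbers were not used here, so levels are not compared between genes, and no sequences are shown. Labeled over total RNA and the depletion of unlabeled RNA are compared between genes, but without correction for either.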

Additional observations from a re-analysis of the deposited data

How the results depend on the processing

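Each comparison was repeated under the alternatives. Counts of called genes among the 36 stayed within 1.5 times their value except as follows. With TMM library sizes, time gave 1 call in total RNA with 4sU and 1 without it, against 7.27% and 9.42% of all genes. S. pombe totals gave 0 in each, against 1.22% and 2.47%. Time gave 0 with TMM in unlabeled RNA, against 7.74%. With TMM the pulse gave 1 call in the labeled, 2 in the total and 18 in the unlabeled fraction. The shares of all genes were 5.01%, 8.06% and 56.6%. DESeq2 called 3 for 4sU in total RNA, against 4.88%. The unlabeled libraries alone gave 0 for time, against 1.04%, and 60 min alone gave 16 for labeled over total RNA, against 40.0%. Leaving out 1 library at a time gave 0 to 28 calls for time in unlabeled RNA and 0 to 5 for 4sU in total RNA.

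The genes followed by name reversed direction in these cases. With S. pombe library sizes, the labeled over total values of the 11 genes called lower were 2.50 for RPB2, 2.43 for RPB3, 2.42 for RPB9, 2.60 for TAF1, 2.52 for TAF2, 1.64 for TAF10, 2.72 for TAF13, 2.75 for TFB1, 2.38 for SSL1, 2.31 for TFB4 and 1.35 for TFB5. With TMM, 4sU in labeled RNA gave -0.41 for RPB4, -0.65 for TAF7, -1.25 for TAF10 and -0.94 for TFB5, and 4sU in unlabeled RNA gave 0.90 for RPO26, 0.98 for RPB11, 0.89 for TAF10 and 0.97 for TAF14. Over all 36 genes, 12 turned direction with TMM for 4sU in labeled RNA, none of them called, and 13 for 4sU in unlabeled RNA, of which TAF10, TAF14 and TFB5 (0.70, edgeR adjusted p = 0.0178) were called higher. Both follow from the scale, which moves all genes together. Leaving out 1 library moved CCL1 for time in unlabeled RNA between -2.96 and 1.21.

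The culture as a replicate block, paired by the growth protocol, gave 8 calls for time in unlabeled RNA, against 26.9% of all genes. For labeled over total RNA it gave 30, against 63.1%. The block changed no call of the 36 genes beyond those given with their results. Adding the block to the unlabeled libraries alone, chosen after seeing the data, gave 13 calls, against 29.8% of all genes. Total RNA without 4sU as the base, also chosen after seeing the data, gave 32 for labeled over total RNA, against 69.5%. Levels per transcript length were not run, because lengths were not used here. Each group has 2 libraries, and TAF8 and RPB11 in total RNA rest on few reads, as do RPB7, RPB8 and RPB10 in total RNA without 4sU. So do RPB7, RPB11, TAF7, TAF8, TAF11 and CCL1, among others, in unlabeled RNA with 4sU.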
